A study of Mus musculus with 18 samples.

Results

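The genes described here make glutathione, recycle it and supply the cysteine that its synthesis uses. They are 9 of the 32282 genes on a mouse array, counting targets without a gene symbol: Gclc, Gclm, Gss, Gsr, Slc7a11, Cth, Cbs, Ggct and Oplah. They were chosen by symbol, as all non-control probes whose transcript accession maps to one of these names, which gave 13 probes. Of these probes, 10 were well above background on all 18 arrays and 3, all of Slc7a11, on none of them, so that 8 of the 9 genes could be tested.

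The arrays measured RNA of whole livers of female mice aged 6 weeks, 3 per group, in 3 lines that each had a mutant group and a genetic control. Nrf1 CKO mice (Nrf1dN/-::Alb-Cre, mixed strain) lacked Nrf1 in hepatocytes, where the albumin promoter drives Cre, and their controls (Nrf1dN/+) carried 1 dN allele as well. Nrf2 KO mice (Nrf2-/-, C57BL/6) lacked Nrf2 in all cells and were set against Nrf2+/+ mice. Keap1 KD mice (Keap1 Kd/-, mixed strain) carried a knockdown allele over a null allele, and their controls (Keap1 Kd/+) carried the knockdown allele too. Nothing in the labels says whether the 3 samples of a group came from separate animals, and p-values therefore reflect the spread between these samples only, which may be technical.

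Glutathione is built from glutamate, cysteine and glycine in a pair of steps. The first and rate-limiting step is run by glutamate-cysteine ligase, whose catalytic subunit is encoded by Gclc and whose modifier subunit by Gclm, and the last by glutathione synthetase (Gss). Oxidised glutathione is returned to its reduced form by glutathione reductase (Gsr) with NADPH. Spent glutathione re-enters through the gamma-glutamyl cycle, in which gamma-glutamylcyclotransferase (Ggct) releases 5-oxoproline and 5-oxoprolinase (Oplah) turns that back into glutamate. Cysteine enters hepatocytes as such, as cystine through the exchanger xCT (Slc7a11), or is made from methionine by transsulfuration, in which Cbs condenses homocysteine with serine and Cth cleaves the cystathionine formed. Several of these genes are known targets of NRF1 and NRF2, a related pair of transcription factors that act at antioxidant response elements. KEAP1 holds NRF2 low by marking it for degradation.

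The letters TGACNNNGC, the core of that element, were searched on both strands of the RefSeq promoter windows, which run from 250 bases before to 50 after a start site on GRCm38.p6. A window was matched to 5 of the 9 genes (Gclm, Ggct, Gss, Cbs and Slc7a11), and Gclc, Gsr, Cth and Oplah were not matched. The letters occur in 2 of the 5 windows and in 12.4% of all 32851 windows. Both windows are shown 5′ to 3′ on the strand of the gene, with the matching letters in capitals, since they belong to the modifier subunit of the ligase and to the gene of this group that was higher in Nrf1 CKO livers. The Gclm window lies at chr3:122245307-122245606 (plus strand) and the Ggct window at chr6:54992818-54993117 (minus strand).
Gclm: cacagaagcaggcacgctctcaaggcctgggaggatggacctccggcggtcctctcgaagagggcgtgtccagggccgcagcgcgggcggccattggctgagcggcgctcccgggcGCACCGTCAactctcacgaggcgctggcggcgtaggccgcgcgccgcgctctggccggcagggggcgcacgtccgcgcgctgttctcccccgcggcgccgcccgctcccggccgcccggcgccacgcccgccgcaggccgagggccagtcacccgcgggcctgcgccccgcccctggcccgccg
Ggct: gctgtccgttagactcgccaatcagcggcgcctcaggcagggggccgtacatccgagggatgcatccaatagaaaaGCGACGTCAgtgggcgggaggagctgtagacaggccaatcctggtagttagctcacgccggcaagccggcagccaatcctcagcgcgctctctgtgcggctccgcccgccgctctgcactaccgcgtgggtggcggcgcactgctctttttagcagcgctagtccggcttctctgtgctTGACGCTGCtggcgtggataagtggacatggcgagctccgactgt
The match in Gclm lies on the opposite strand, from base -134 to -126 relative to the start site. Ggct holds a match on the opposite strand from base -174 to -166 and another on its own strand from base 6 to 14 after the start. A match describes the letters of the window and is not evidence of binding.

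Values are log2 processed signals relative to the 75th percentile of the array, so that they compare 1 probe between arrays and not 1 gene with another. Between 21668 and 28213 of 43379 spots were above background on an array, and arrays of a group correlated at r = 0.973 to 0.991. The targeted genes were low in their own mutants, though where their probes lie relative to the deleted parts was not examined, which limits this check of the labels. Nfe2l1, which encodes NRF1, was not well above background on any of the 3 Nrf1 CKO arrays and was at least 470-fold lower there than in controls. Nfe2l2, which encodes NRF2, had values of -5.90, -5.59 and -3.16 in Nrf2 KO livers, the last above background, against 3.30, 3.52 and 3.13 in Nrf2 Control livers. Keap1 had values of 1.75, 1.79 and 1.87 in Keap1 KD livers, against 4.47, 4.81 and 3.28 in Keap1 Control livers, a log2 change of -2.39 (SE 0.31, limma adjusted p = 0.0012). All 5 hepatocyte markers on the array (Alb, Apoa1, Ttr, Hpd and Tdo2) were tested, and none was below background on all arrays of a mutant group. In whole liver, fewer cells of a type and less RNA per cell cannot be told apart.

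**Figure D1:**
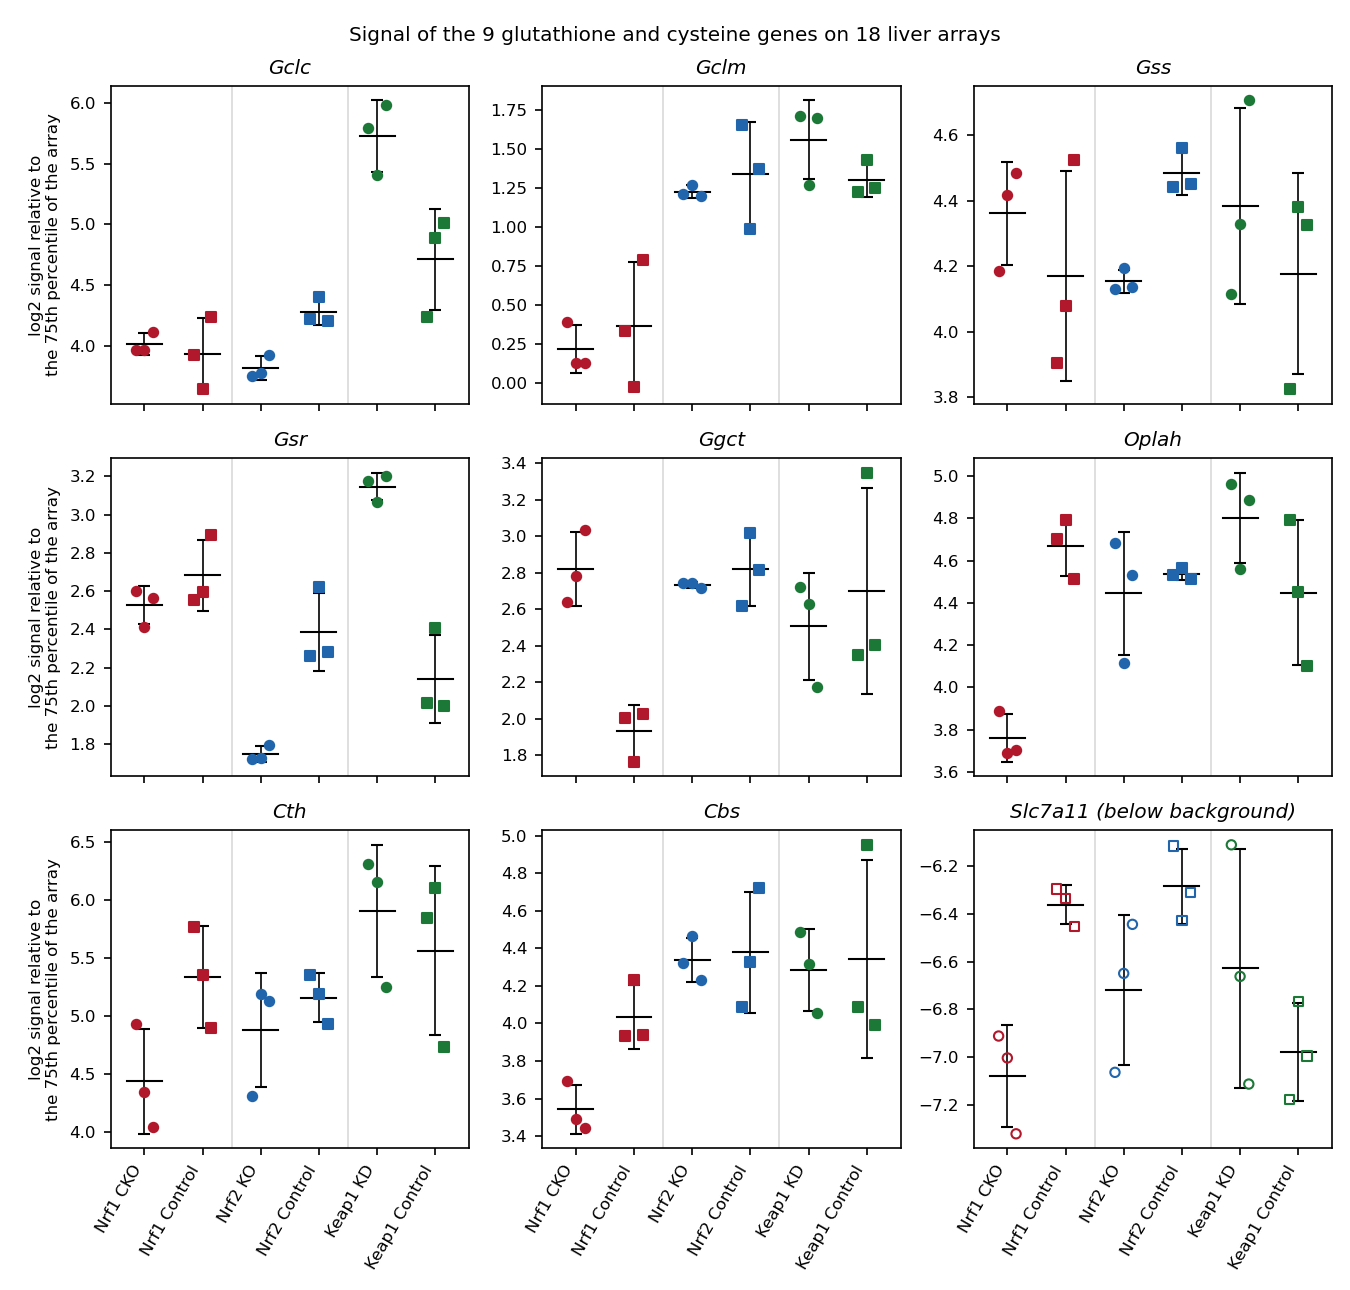
Log2 signal of each of the 9 genes relative to the 75th percentile of the array, 1 point per array, with the mean and SD of each group of 3 as bars; mutant groups are circles and controls squares, open symbols are below background, and each panel has its own axis. Gclc and Gsr are highest in Keap1 KD livers, Ggct is low in Nrf1 Control livers and Oplah is low in Nrf1 CKO livers.

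The Keap1 comparison asks how the genes behave when NRF2 is released from its repressor. The catalytic subunit of the ligase and glutathione reductase were each about doubled in Keap1 KD livers, while the modifier subunit, the synthetase and the 4 tested genes of turnover and cysteine synthesis did not pass the test. That makes 2 of 8 tested genes higher and 0 lower, where 5.55% of all 17721 genes were called, 0.965% higher and 4.59% lower. Groups did not overlap for these 2 genes, as for 17% of all genes. With scaling to the array median all genes shifted by a median of 0.30, and the changes of Gclc and Gsr were then 1.31 and 1.30. The median log2 change of the 8 was 0.30, beside 0.00 for all genes.

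Gclc had values of 5.79, 5.40 and 5.98 in Keap1 KD livers, against 4.24, 4.89 and 5.01 in Keap1 Control livers. Every KD array was above every control array, though the control arrays were spread over a wide range. The log2 change was 1.01 (SE 0.21, limma adjusted p = 0.0115), which is 2.02-fold with a 95% interval of 1.49 to 2.75. On slide 7, which held 1 array of each group, Gclc differed by 0.97, and by 1.03 among the 3 arrays of 1 scan date. With slide as a block the change was 0.82 and the call was lost (adjusted p = 0.150), as it was when the scan date was the block (0.89, adjusted p = 0.0828), with quantile normalization (adjusted p = 0.0761), with normexp background correction (adjusted p = 0.0788) and in a fit to only the 6 arrays of this line (adjusted p = 0.149).

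Gsr had values of 3.18, 3.06 and 3.20 in Keap1 KD livers, against 2.02, 2.41 and 2.001 in Keap1 Control livers. The KD arrays lay close together and all above the controls. The log2 change was 1.01 (SE 0.15, limma adjusted p = 0.0026), which is 2.01-fold with a 95% interval of 1.60 to 2.51. It was 1.20 on slide 7 and 0.996 within the scan date. Blocking on slide left the change at 0.999 but ended the call (adjusted p = 0.0983), and so did fitting the line by itself (adjusted p = 0.0849). The 2 further Gsr probes gave 0.79 (adjusted p = 0.009) and 1.07 (adjusted p = 0.004) in a fit to all 23554 probes.

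Gclm, the partner of Gclc in the ligase, had values of 1.71, 1.27 and 1.70 in Keap1 KD livers, against 1.22, 1.43 and 1.25 in Keap1 Control livers. The second KD array fell among the controls, and the log2 change of 0.26 had a 95% interval of -0.19 to 0.70 (limma adjusted p = 0.624). Gss had values of 4.11, 4.33 and 4.71 in KD livers, against 3.82, 4.38 and 4.33 in controls. The groups overlapped, with a change of 0.21 (95% interval -0.21 to 0.62). Among the recycling and supply genes the changes were 0.35 for Oplah (95% interval -0.05 to 0.75), 0.34 for Cth (-0.47 to 1.16), -0.06 for Cbs and -0.19 for Ggct, all with overlapping groups. With scaling to the array median Cbs (0.23) and Ggct (0.10) turned, under the shift of all genes given above, and among the 3 arrays of 1 scan date Cth differed by -0.17. Cth varied most between arrays, with values of 6.31, 6.16 and 5.25 in KD livers and 5.85, 6.10 and 4.74 in controls.

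**Figure D2:**
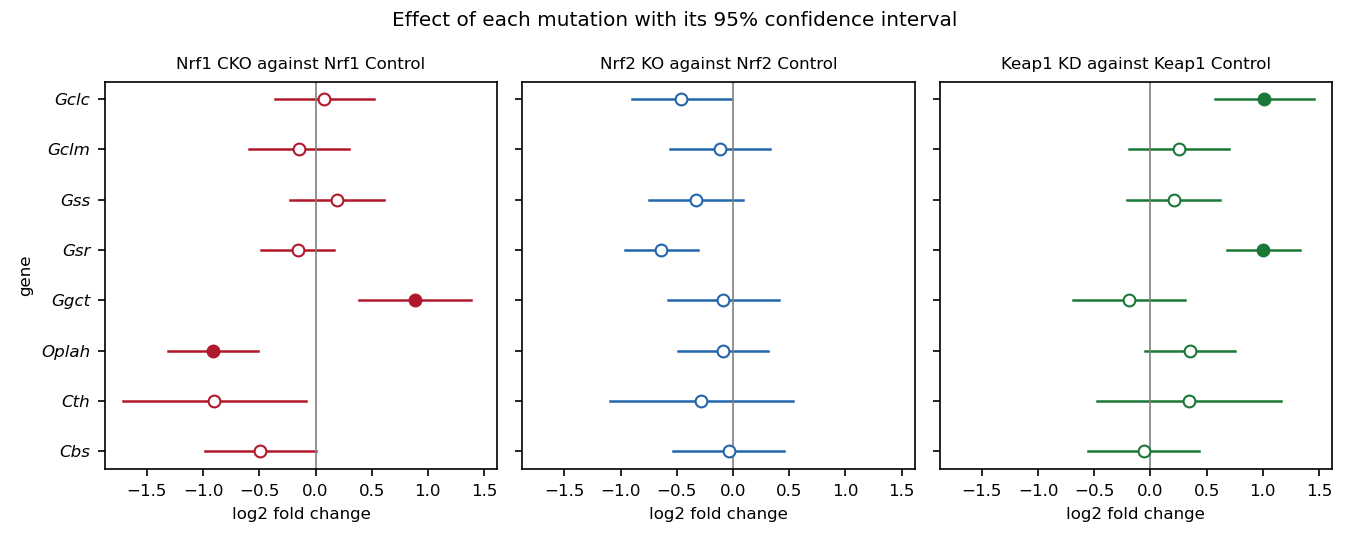
Log2 change of each tested gene in each mutant against its own control (horizontal axis), with the 95% confidence interval as a line; filled points passed an adjusted p of 0.05. Gclc and Gsr stand at 1.01 in Keap1 KD livers, all 8 points lie below 0 in Nrf2 KO livers, and Ggct and Oplah lie on opposite sides of 0 in Nrf1 CKO livers.

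The Nrf2 comparison asks what the loss of NRF2 does to the same genes in mice that received no inducer, as far as the labels say. All 8 tested genes had lower means in Nrf2 KO than in Nrf2 Control livers, where 49.2% of all genes had a negative change. For Gclc, Gss and Gsr this direction held in every alternative run. The other 5 turned in at least 1 of them: Cbs with quantile normalization (0.03), normexp (0.05) or without Nrf2 Control replicate 3 (0.13) or Nrf2 KO replicate 3 (0.01), Oplah with normexp (0.03), slide (0.24) or scan date (0.30) as a block or without Nrf2 KO replicate 2 (0.07), and, each without 1 array, Gclm (0.05, Nrf2 Control replicate 1), Ggct (0.01, Nrf2 Control replicate 2) and Cth (0.002, Nrf2 KO replicate 1). None of the 8 passed limma's test after adjustment, and 2 of them, Gsr and Gclc, had an unadjusted p under 0.05, as did 8.88% of all genes. In this comparison 0.0621% of genes were called in either direction. The median log2 change of the 8 genes was -0.20, beside 0.01 for all genes. The 3 arrays of each group did not overlap for 3 of the 8 (Gclc, Gss and Gsr), as for 20.8% of all genes.

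Gsr had values of 1.72, 1.73 and 1.79 in Nrf2 KO livers, against 2.26, 2.62 and 2.28 in Nrf2 Control livers. The KO arrays were within 0.1 of each other and all below the controls. The log2 change was -0.64 (95% interval -0.96 to -0.31) with a limma adjusted p of 0.221. The other 2 probes gave -0.65 and -0.50, with adjusted p of 0.185 and 0.410 over all probes. With array quality weights the change was -0.60 and passed (adjusted p = 0.0476).

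Gclc had values of 3.75, 3.78 and 3.93 in Nrf2 KO livers, against 4.22, 4.40 and 4.21 in Nrf2 Control livers. Again no KO array reached a control array, and the log2 change was -0.46 (95% interval -0.90 to -0.02, limma adjusted p = 0.552). Gss followed with 4.13, 4.19 and 4.14 in KO livers, against 4.44, 4.56 and 4.45 in controls, a change of -0.33 (95% interval -0.75 to 0.09, adjusted p = 0.672). Gclm had values of 1.21, 1.27 and 1.20 in KO livers, against 1.66, 0.99 and 1.37 in controls. Its control arrays spanned the KO values, and the change was -0.11 (95% interval -0.56 to 0.33). The changes of the recycling and cysteine genes were -0.28 for Cth, -0.09 for Oplah, -0.08 for Ggct and -0.04 for Cbs, with overlapping groups.

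No slide and no scan date held arrays of both Nrf2 groups, and a fit with slide as a block joins them only through Keap1 arrays that shared their slides. In that fit the changes of Gsr and Gclc were -0.85 (adjusted p = 0.602) and -0.996 (adjusted p = 0.555), and Oplah turned to 0.24 (adjusted p = 0.915). No value within a slide or a scan date exists for this line.

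**Figure D3:**
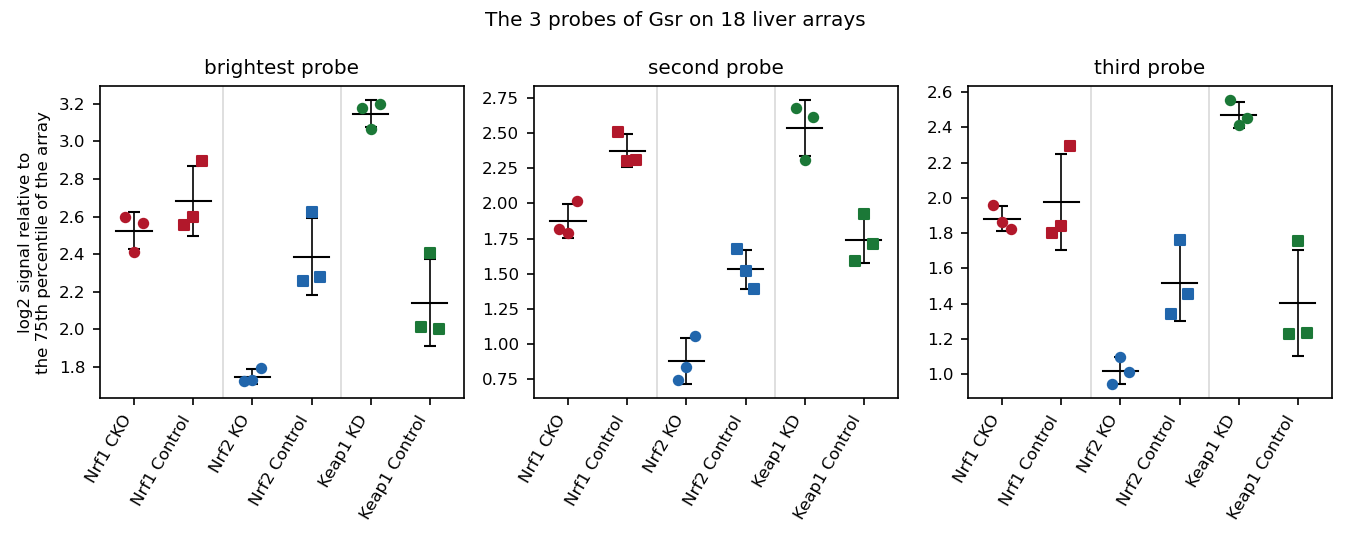
Log2 signal of the 3 probes of Gsr relative to the 75th percentile of the array, 1 point per array, with the mean and SD of each group of 3 as bars; each panel has its own axis. On every probe the Keap1 KD arrays lie above and the Nrf2 KO arrays below their own controls, and the Nrf1 groups are apart on the second probe.

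The Nrf1 comparison asks about the loss of NRF1 in hepatocytes. By their genotypes, CKO mice also differed from controls in the second Nrf1 allele of all cells and in carrying Cre. These differences cannot be told apart from the loss in hepatocytes here. The called genes were Ggct, which rose 1.85-fold, and Oplah, which fell 1.88-fold. The ligase subunits, the synthetase, the reductase, Cth and Cbs did not pass the test. This makes 1 gene higher and 1 lower of 8 tested, where 19% of all genes were called, 7.96% higher and 11% lower. At that share of all genes, the count by itself does not set the 8 apart. The median log2 change of the 8 was -0.15, beside -0.09 for all genes. Groups did not overlap for 3 of the 8 (Ggct, Oplah and Cbs), as for 43.5% of all genes.

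Ggct, which splits gamma-glutamyl amino acids, had values of 2.64, 2.78 and 3.04 in Nrf1 CKO livers, against 2.003, 1.77 and 2.03 in Nrf1 Control livers. All CKO arrays were above all controls, and the log2 change was 0.89 (SE 0.23, limma adjusted p = 0.0183; 95% interval of the fold 1.31 to 2.61). In the other 4 groups the means were 2.51 to 2.82, so that the CKO mean of 2.82 was like the highest of them and the control mean of 1.93 was below them all. The call was lost without Nrf1 Control replicate 1 (adjusted p = 0.0546) or 2 (0.0614), without Nrf1 CKO replicate 2 (0.0587) or 3 (0.0945), and with scaling to the array median (0.0646).

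Oplah, which consumes the 5-oxoproline that Ggct forms, had values of 3.89, 3.69 and 3.70 in Nrf1 CKO livers, against 4.70, 4.79 and 4.51 in Nrf1 Control livers. All CKO arrays were below all controls, and the log2 change was -0.91 (SE 0.19, limma adjusted p = 0.0060; 95% interval of the log2 change -1.31 to -0.51). The CKO mean of 3.76 was also under the means of the other 4 groups, which were 4.44 to 4.80.

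On slide 2, which held all 3 CKO arrays and 1 control array, Ggct differed by 0.79 and Oplah by -0.75. With slide as a block the estimates were these same values by construction, since the other slide of the line held only control arrays. Both lost the call in that fit (limma adjusted p = 0.180 for Ggct and 0.202 for Oplah). All 6 arrays of the line were scanned on the same date.

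The transsulfuration genes had lower means in Nrf1 CKO livers without passing the test. Cth had values of 4.93, 4.34 and 4.04 in CKO livers, against 5.77, 5.35 and 4.90 in controls, a log2 change of -0.90 (95% interval -1.72 to -0.09, limma adjusted p = 0.108). The first CKO array overlapped the controls. Cbs had values of 3.69, 3.49 and 3.44 in CKO livers, against 3.93, 4.23 and 3.94 in controls, with no overlap and a change of -0.49 (95% interval -0.98 to 0.00, limma adjusted p = 0.144). On slide 2, with all 3 CKO arrays and 1 control array, Cth differed by -0.46 and Cbs by -0.39. With quantile normalization they were -0.61 (adjusted p = 0.208) and -0.27 (adjusted p = 0.435). Both passed only with array quality weights, Cth at -1.16 (adjusted p = 0.0052) and Cbs at -0.54 (adjusted p = 0.0178), a fit that called 8138 of all 17721 genes in this comparison.

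For the synthetic steps, Gclc had values of 3.96, 3.97 and 4.12 in Nrf1 CKO livers, against 3.93, 3.65 and 4.24 in Nrf1 Control livers, a change of 0.08 (95% interval -0.36 to 0.52). Gss changed by 0.19 (95% interval -0.22 to 0.61) and Gclm by -0.15 (-0.60 to 0.30), each with overlapping groups. On slide 2 Gclc differed by -0.22, Gss by -0.16, Gclm by -0.57 and Gsr by -0.37, so that Gclc and Gss had the other direction there. The probes of Gsr disagreed in this comparison. The brightest gave -0.16 (not called) and the third -0.10 (0.741). The second had values of 1.82, 1.79 and 2.02 in CKO livers, against 2.51, 2.30 and 2.31 in controls, and was called lower by itself at -0.50 (adjusted p = 0.035).

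Some markers of cell types were called in the same livers. Of all genes, 7.96% were called higher and 11% lower in Nrf1 CKO livers. In Keap1 KD livers 0.965% were called higher and 4.59% lower, and in Nrf2 KO livers 0.0621% in either direction. In Nrf1 CKO livers 5 of 6 stellate cell markers were higher (Lrat, Lum, Pdgfrb, Cygb and Reln), with a summed linear signal of 109 to 148 times the array's 75th percentile against 69.3 to 97.0 in controls, and 2 of 5 hepatocyte markers were lower (Hpd and Tdo2), with a sum of 1143 to 1622 against 1794 to 2029. Single markers of other lists were also called there: Trem2 higher and Cd163 lower of 5 for macrophages, Lyve1 lower of 5 for sinusoidal endothelium, Cd8a higher of 5 for lymphocytes and Cela1 higher of 2 tested for pancreas, whose Cpa1 and Pnlip were below background. In Keap1 KD livers Trem2 and Lyve1 were higher and Lum and Cela1 lower, and in Nrf2 KO livers no marker was called. None of the 5 cholangiocyte markers was called in any comparison. Their part in the results was not tested.

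The RNA of the cystine exchanger Slc7a11 gave no measurable signal. All 3 probes of Slc7a11 were below background on all 18 arrays, with values between -7.43 and -6.11, while the lowest signal above background on an array lay between -5.28 and -3.97. No fold is given for it, and a change under this level could not be seen.

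The effects of the 3 mutations were compared with each other in the same fit. The 3 comparisons share no arrays, but line goes with its strain background and, for the Nrf1 line, with slide and scan date. Relative to the Nrf1 CKO effect, the Keap1 KD effect was larger by 1.16 for Gsr (SE 0.22, limma adjusted p = 0.0110) and by 1.26 for Oplah (SE 0.27, adjusted p = 0.0178), so 2 of 8 genes were called where 6.96% of all genes were called. Relative to the Nrf2 KO effect, it was larger by 1.47 for Gclc (SE 0.29, adjusted p = 0.0185) and by 1.64 for Gsr (SE 0.22, adjusted p = 0.0013), again 2 of 8, with 3.08% of all genes called. Between the Nrf2 KO and Nrf1 CKO effects none of the 8 was called by limma (5.6% of all genes were) and 3 had an unadjusted p under 0.05, as did 24% of all genes. These were Ggct at -0.97 (adjusted p = 0.0916), Oplah at 0.82 (adjusted p = 0.0802) and Gsr at -0.48 (adjusted p = 0.188). For Ggct the Keap1 KD effect minus the Nrf1 CKO effect was -1.08 (adjusted p = 0.0593), and for Gclc it was 0.94 (adjusted p = 0.0635). Of 14 alternatives other than leaving out 1 array, Ggct stayed uncalled in 10 and Gclc in 11. Of 12 fits without 1 array, they stayed uncalled in 10 and 11. The lowest limma adjusted p among the alternatives was 0.0197 for Ggct and 0.0190 for Gclc. Between the Nrf2 KO and Nrf1 CKO effects, Ggct stayed uncalled in 11 of 14 alternatives and Oplah in 12 of 14.

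The order of the 6 groups differed from gene to gene. For Gclc it was Keap1 KD (5.73 ± 0.29, SD, n = 3), Keap1 Control (4.71 ± 0.41), Nrf2 Control (4.28 ± 0.11), Nrf1 CKO (4.01 ± 0.09), Nrf1 Control (3.94 ± 0.30) and Nrf2 KO (3.82 ± 0.10). Neighbours were apart only between Keap1 KD and Keap1 Control and between Nrf2 Control and Nrf1 CKO; the other neighbours overlapped. Gsr also began with Keap1 KD (3.15 ± 0.07) and ended with Nrf2 KO (1.75 ± 0.04), each clear of its neighbour, with Nrf1 Control (2.68 ± 0.19), Nrf1 CKO (2.53 ± 0.10), Nrf2 Control (2.39 ± 0.20) and Keap1 Control (2.14 ± 0.23) overlapping in sequence between them.

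Gclm was lowest in the Nrf1 line. It averaged 1.56 ± 0.25 in Keap1 KD, 1.34 ± 0.34 in Nrf2 Control, 1.30 ± 0.11 in Keap1 Control and 1.23 ± 0.04 in Nrf2 KO livers, which overlapped, and 0.37 ± 0.41 in Nrf1 Control and 0.22 ± 0.15 in Nrf1 CKO livers (SD, n = 3 each). The highest array of the Nrf1 line (0.79) was below the lowest of the other lines (0.99). The Nrf1 line was scanned on a date and on slides of its own, so line and batch cannot be told apart here. For Gss the 6 group means spanned only 4.15 to 4.48, and each overlapped its neighbour.

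The genes whose pattern over the 18 arrays was most like that of Gclc were Htatip2 (Pearson r = 0.929), Shc1 (0.908) and Slc39a5 (0.906). For Gsr they were Txnrd1 (0.899), which encodes cytosolic thioredoxin reductase, Kctd9 (0.898) and Nqo1 (0.895), a quinone reductase and a common readout of NRF2. For Gclm they were Gm6548 (0.950), Poldip2 (0.938) and E130201H02Rik (0.936). These arrays share lines, slides and genotypes, and the values are descriptive. Among the members, Gclc and Gsr correlated at 0.639 over the 18 arrays, Gclc and Gclm at 0.603, and Gclm and Gsr at -0.04. Other pairs were similarly high, with Cth and Oplah at 0.640 and Gclm and Cbs at 0.635. The lowest pair was Ggct and Oplah at -0.394.

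Around these genes lie the methionine cycle, which feeds transsulfuration, other enzymes of glutathione breakdown, other carriers, cysteine use and the disulfide reductases. Of 38 such genes 36 were tested. In Keap1 KD livers 4 were higher and 2 lower, where 0.965% of all genes were called higher and 4.59% lower, and their median log2 change was 0.13, beside 0.00 for all genes. The higher ones were Txnrd1 (0.97, SE 0.16, limma adjusted p = 0.0038), Ggt5 of the gamma-glutamyl transferase family (0.61), the mitochondrial persulfide dioxygenase Ethe1 (1.22, with overlapping groups) and the glutamate and cysteine carrier Slc1a1, which was below background in all 3 controls and at least 2.71-fold higher in KD livers. Slc1a1 was above background on all 3 arrays of no other group and so entered the test only through the group where it is high; without it the count is 3 higher. The lower ones were the dipeptidase Dpep1 (-1.04, but -0.74 with quantile normalization and -0.23 with normexp, where it was not called) and Slc3a1, a subunit of the renal type cystine carrier (-1.27). The 6 calls became 2 without Keap1 Control replicate 2 or 3 or without Keap1 KD replicate 2 or 3, and 3 without Keap1 KD replicate 1. The limma adjusted p was 0.0327 for Ggt5, 0.0365 for Ethe1, 0.0195 for Slc1a1, 0.0379 for Dpep1 and 0.0432 for Slc3a1. Of 14 alternatives other than leaving out 1 array, Txnrd1 kept its call in 12 and Ggt5 in 9. Ethe1 and Slc3a1 kept theirs in 8 of 14, Dpep1 in 6 of 14 and Slc1a1 in 10 of 13. None of the 9 methionine cycle genes was called in that comparison. In Nrf2 KO livers none of the 36 was called by limma, where 0.0621% of all genes were. Of the 36, 4 had an unadjusted p under 0.05, as did 8.88% of all genes. Their median was -0.04, beside 0.01 for all genes.

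In Nrf1 CKO livers 8 of the 36 were lower and 2 higher, where 11% of all genes were called lower and 7.96% higher, and their median was -0.34, beside -0.09 for all genes. The methionine cycle held 3 of the lower genes: Gnmt, which uses S-adenosylmethionine to methylate glycine (-2.08, SE 0.30, limma adjusted p = 0.0008), Ahcy, which releases homocysteine (-2.07, SE 0.34, adjusted p = 0.0021), and Mat1a, the S-adenosylmethionine synthetase of adult liver (-1.05, SE 0.26, adjusted p = 0.0146). With quantile normalization Mat1a was at -0.53 and was not called (adjusted p = 0.0501). It was not called in a fit to only the arrays of this line either (adjusted p = 0.0577). Mtr, which methylates homocysteine back to methionine, was higher (0.78, SE 0.13, adjusted p = 0.0025). The others lower were the glutathione cyclotransferase Chac1 (-1.92), Slc3a1 (-1.83), Suox (-1.12) and Sqor (-0.78), both of sulfur oxidation, and the glutaredoxin Glrx (-0.80), and the neutral amino acid carrier Slc1a4 was the other one higher (2.97). The 10 calls became 6 without Nrf1 Control replicate 2 or without Nrf1 CKO replicate 2 or 3. In the 6 fits without 1 array of this line, Mat1a, Sqor and Glrx were each called in 2 and Chac1 in 3. Without a filter on background, Sqor (adjusted p = 0.0585) and Glrx (adjusted p = 0.0575) were not called. Sqor was at -0.35 with quantile normalization and -0.41 with normexp and was not called in either. With slide as a block, which sets the CKO arrays against the 1 control array of slide 2, none of the 10 passed and each kept its direction. With slide as a block the 6 called in Keap1 KD livers did not pass either, in the same directions.

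**Figure D4:**
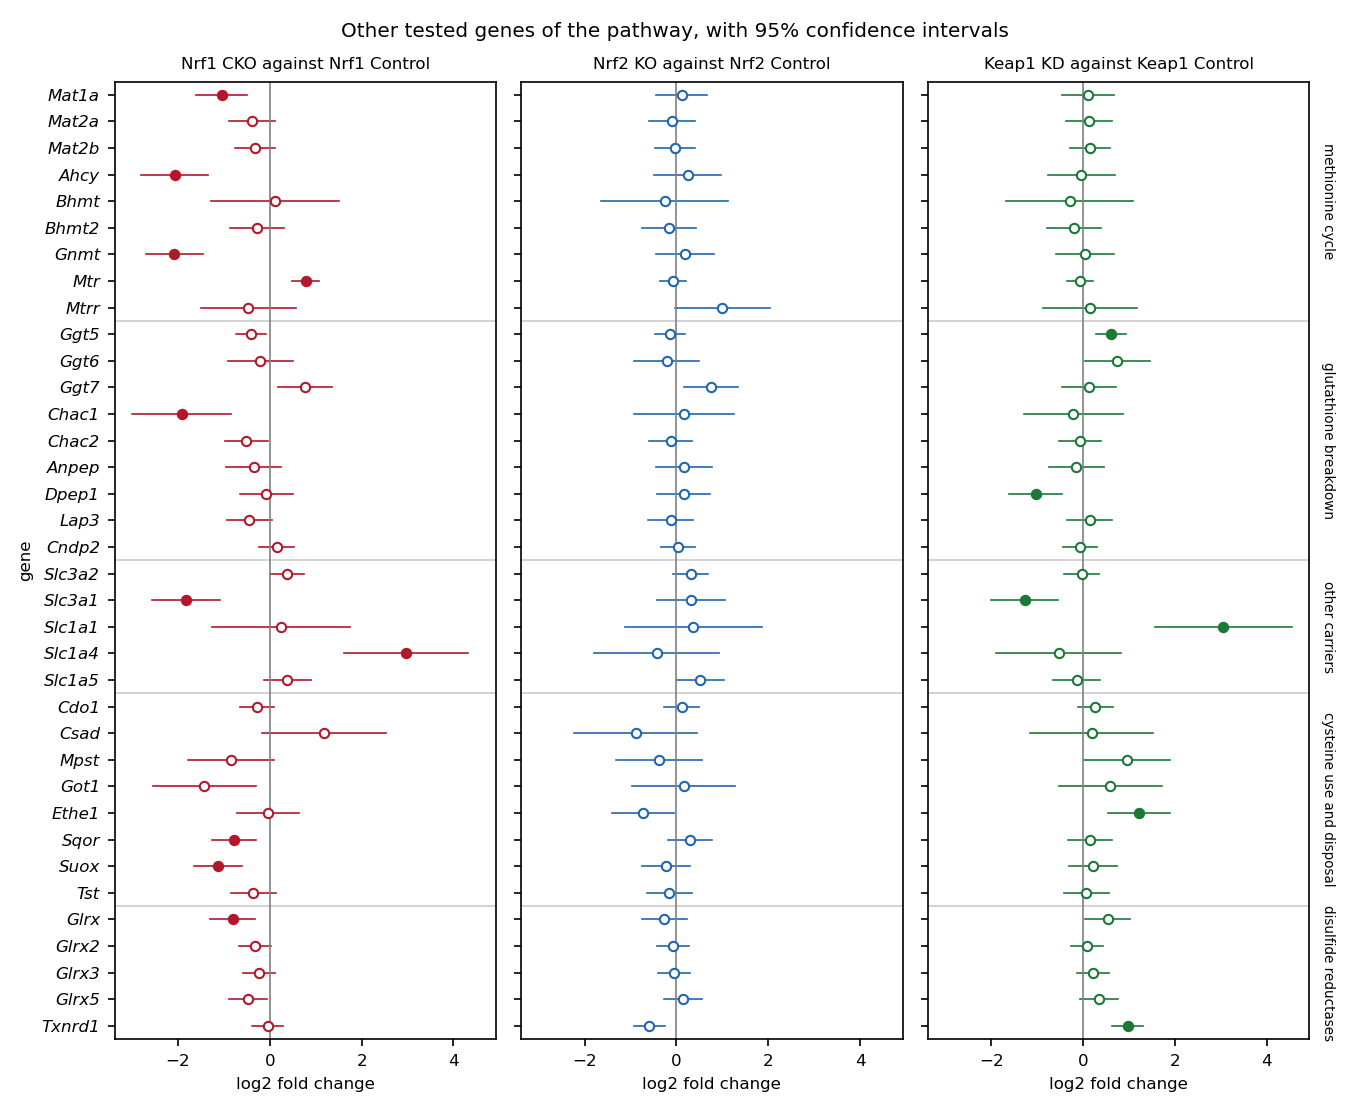
Log2 change of the 36 tested genes around the pathway in each mutant against its own control (horizontal axis), grouped by role, with the 95% confidence interval as a line; filled points passed an adjusted p of 0.05. Lower calls in Nrf1 CKO livers include Gnmt, Ahcy and Mat1a at the top, and no point is filled in Nrf2 KO livers.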

How the data were processed

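Total RNA was labelled with Cy3 and hybridized to single-colour Agilent arrays, per the labels' protocols. Per the file headers, Agilent Feature Extraction 10.7.3.1 read the scans. The deposited processed signal is an intensity on a linear scale, background-subtracted and detrended, and not normalized between arrays, per the file headers. The series table held the same intensities at 780822 of 780822 entries. The deposited flags (well above background, saturated, outlier) and control types are other output of that software, per the file headers. The genome build named in the headers is not that of the reference table, so coordinates are given only for promoter windows, on GRCm38.p6.

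Control spots (1639 of 45018 per array) and outlier spots were left out, spots of a probe were averaged as log2, and log2 of the array's 75th percentile was subtracted. Symbols came from RefSeq accessions for 26690 of 41174 probes and from a symbol or synonym for 28. Probes above background on all 3 arrays of a group were tested (23554), the brightest per gene, which left 17721 genes. A target without a symbol was counted as a gene under the array's own name for it. Of the 17721, 12874 had a symbol and 4847 had none. A model of the 6 group means was fitted over the 18 arrays with limma 3.58.1 (R 4.3.3; 12 residual and 3.08 prior degrees of freedom), and genes were called at a Benjamini-Hochberg adjusted p under 0.05 over all genes. The median standard error of an effect was 0.244 on the log2 scale. The number of arrays limits the precision. The fit was tested on simulated data.

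The members, the pathway and marker lists and the tests were chosen with earlier results of these data known. Named are all members, the 3 targeted genes, the called pathway genes and the 3 genes most like Gclc, Gclm and Gsr. Alternatives were quantile, array median and normexp (offset 50, median signals, per the file headers raw intensities) scaling, and the authors' series table. Others were other filters on background, other probe rules, arrays of the lines alone and array quality weights. Replicate number, slide or scan date as a block and each array left out were further ones.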

Additional observations from a re-analysis of the deposited data

Results flagged for a closer look

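The effect of 1 mutation differed from that of another, by a test of the difference itself, for 4 values among the glutathione genes. For Gsr the Keap1 KD effect exceeded the Nrf1 CKO effect by 1.16 on the log2 scale (SE 0.22, limma adjusted p = 0.0110) and the Nrf2 KO effect by 1.64 (SE 0.22, adjusted p = 0.0013). The KD effect itself was 1.01, against -0.16 in Nrf1 CKO and -0.64 in Nrf2 KO livers. For Gclc the Keap1 KD effect exceeded the Nrf2 KO effect by 1.47 (SE 0.29, adjusted p = 0.0185), the effects being 1.01 and -0.46. For Oplah the Keap1 KD effect of 0.35 exceeded the Nrf1 CKO effect of -0.91 by 1.26 (SE 0.27, adjusted p = 0.0178). With slide as a block the 4 differences kept their direction and none passed, at 1.37 (adjusted p = 0.182), 1.85 (0.0661), 1.82 (0.0733) and 1.21 (0.250). Other settings ended some of these calls too: scan date as a block for Gsr between Keap1 KD and Nrf1 CKO (adjusted p = 0.0510), the lines compared alone for Oplah (0.0527), and quantile normalization (0.0901), normexp (0.0872) and no filter on background (0.0528) for Gclc. Single arrays whose omission ended a call are given with the processing.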

How the results depend on the processing

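Counts below are of the 8 glutathione genes, of all genes and, where they moved, of the 36 pathway genes. As reported they were 2, 3364 and 10 in Nrf1 CKO, 0, 11 and 0 in Nrf2 KO and 2, 984 and 6 in Keap1 KD livers, and, for the differences between effects, 0 and 993 (Nrf2 KO minus Nrf1 CKO), 2 and 1233 (Keap1 KD minus Nrf1 CKO) and 2 and 546 (Keap1 KD minus Nrf2 KO). With quantile normalization they were 1 and 555 for Keap1 KD, 746 of all genes for Keap1 KD minus Nrf1 CKO and 1 and 276 for Keap1 KD minus Nrf2 KO. With the array median there was 1 glutathione gene in Nrf1 CKO livers, and all genes gave 22 for Nrf2 KO, 572 for Nrf2 KO minus Nrf1 CKO and 2604 for Keap1 KD minus Nrf1 CKO. With normexp there were 1 and 508 for Keap1 KD, 1 glutathione gene for Nrf2 KO minus Nrf1 CKO (Ggct), and 1 and 226 for Keap1 KD minus Nrf2 KO. Without a filter on background all genes gave 2094 for Nrf1 CKO and 614 for Keap1 KD (2 pathway genes), with more genes tested, and 312, 353 and 154 for the differences, the last with 1 glutathione gene. With probes above background on all arrays there were 440 for Keap1 KD and 318 for Keap1 KD minus Nrf2 KO.

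In fits of the lines compared alone, with fewer samples, there were 5 for Nrf2 KO, 0, 54 and 1 for Keap1 KD, 2 and 1838 for Nrf2 KO minus Nrf1 CKO, 1 and 264 for Keap1 KD minus Nrf1 CKO and 222 for Keap1 KD minus Nrf2 KO. With array quality weights there were 4, 8138 and 23 for Nrf1 CKO, 1 and 74 for Nrf2 KO, 236 and 1 (pathway) for Keap1 KD, 3 and 5100 for Nrf2 KO minus Nrf1 CKO and 4 and 2469 for Keap1 KD minus Nrf1 CKO. With slide as a block there were 0, 65 and 0 for Nrf1 CKO, 0, 55 and 0 for Keap1 KD, and 8 of all genes, 0 and 11, and 0 and 27 for the differences. With scan date as a block there were 7 for Nrf2 KO, 1, 258 and 1 for Keap1 KD, 205 for Nrf2 KO minus Nrf1 CKO, 1 and 332 for Keap1 KD minus Nrf1 CKO and 82 for Keap1 KD minus Nrf2 KO. Where no construction is named, the cause was not tested.

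Leaving out 1 array at a time gave 1 to 2, 942 to 4165 and 6 to 13 for Nrf1 CKO, 0 to 0, 6 to 12 and 0 to 0 for Nrf2 KO and 2 to 2, 352 to 1046 and 2 to 6 for Keap1 KD. It gave 0 to 0 and 299 to 2123, 1 to 3 and 267 to 2312, and 1 to 2 and 176 to 655 for the differences in the same order. Counts of all genes moved most without Nrf1 Control replicate 1 (1225), Nrf1 CKO replicate 2 (1194) or 3 (942) for Nrf1 CKO, without Nrf2 KO replicate 1 (6) for Nrf2 KO, and without Keap1 Control replicate 3 (352) or Keap1 KD replicate 1 (534) or 3 (586) for Keap1 KD. The call of the Oplah difference between Keap1 KD and Nrf1 CKO was lost without Nrf1 Control replicate 1 (adjusted p = 0.0503) or Nrf1 CKO replicate 3 (0.0521), and that of Gclc between Keap1 KD and Nrf2 KO without Nrf2 KO replicate 1 (0.0534). The 27 named results that were called kept their direction in all 561 settings and lost the call in 112. Of 920 settings on the 40 named results that were not called, 19 gave a call.

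The share of called genes that were higher was 41.9% in Nrf1 CKO livers. It was 55.1% there with quantile normalization, 53.8% with normexp and 35.2% with the array median. In Keap1 KD livers it was 17.4%, against 27.4%, 27.8% and 49.4% in the same order. Same-numbered mutant and control arrays correlated at -0.36 to 0.15 in their deviations from group means, and differently numbered ones at -0.41 to 0.37. With 3 arrays per group, whose deviations depend on each other, this cannot show whether the numbers pair the samples. The main fit did not pair them. The replicate number as a block changed 1 call among the named results, that of Gclc for Keap1 KD minus Nrf1 CKO (0.94, adjusted p = 0.0475). Slide as a random block (consensus correlation -0.02) changed none of the named calls. Nor did the authors' series table, outlier spots kept or averaging the probes of each gene. No depth is defined for arrays, and Slc7a11 lay below what these could measure.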
